A study of Mus musculus with 2 samples.

Results

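Droplets taken to hold free cytoplasmic RNA were compared with droplets taken to hold a nucleus, within each of 2 libraries of mouse salivary gland. Each droplet barcode was placed by its own counts of unique molecular identifiers (UMIs, the tags that mark single RNA molecules). A barcode with under 1000 UMIs, of which at least 27% came from 8 saliva protein genes (Mucl2, Scgb1b27, Scgb2b27, Prol1, Smgc, Scgb2b26, Pip and Car6), was called free RNA. A barcode with at least 1000 UMIs and under 27% from these genes was called a nucleus. The contrast held 126863 of the 142799 barcodes (88.8%). It used 48962 free RNA barcodes and 8384 nuclei of the control library, and 56421 and 13096 of the null library. The sets were thus chosen by measured values of the same counts, so every ratio between them is a description and no p-value is given for it.

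The tissue was the whole salivary gland at an age of 20 days. Its nuclei were not sorted by cell type, and 3′ libraries were made with a 10x Chromium kit, per the labels. The control library came from a Csf2+/- gland and the null library from a Csf2-/- gland, both labelled with the strain C56BL/6. Csf2 encodes the cytokine GM-CSF, and the control is itself heterozygous. Each genotype had 1 library, and the labels do not say whether glands were pooled. Csf2 gave 5 UMIs in the control library (exact Poisson 95% interval from 1.62 to 11.7). The null library had 0 (the same interval from 0 to 3.69). The 2 libraries served here as the replicates of the contrast, so a difference between them cannot be told apart from a difference between genotypes.

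An mRNA is copied from its gene as a long precursor, loses its introns in the nucleus and is exported to the cytoplasm, where ribosomes translate it. Salivary acinar cells make large amounts of a few secreted proteins, and their mRNAs fill the cytoplasm. When tissue is broken up to free nuclei, the cytoplasm spills into the suspension and a part of it is caught in every droplet. Mitochondrial transcripts are made and kept inside the mitochondrion, so in a preparation of nuclei they mark what came from outside the nucleus. Transcripts of genes with long introns spend much of their life as nuclear precursors.

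The median free RNA barcode held 747 UMIs in the control library and 712 in the null one, and the median nucleus 2830.5 and 2010.5. Free RNA barcodes outnumbered nuclei by 5.84 to 1 in the control library and 4.31 to 1 in the null one. The smallest barcode given held 531 UMIs in the control library and 430 in the null one, so these numbers depend on where each library was cut off. As set by the rule, the 8 genes gave 36.8% and 45.5% of the UMIs of free RNA against 14.05% and 18.1% of those of nuclei. Their own log2 ratios ranged from 1.499 (Smgc) to 1.97 (Mucl2) in the control library and from 1.53 (Prol1) to 1.997 (Scgb1b27) in the null one. The line at 27% ran through a sparse zone in the control library, with 49 barcodes at 26% to under 27% and 40 at 27% to under 28% among those with at least 1000 UMIs. In the null library the same strips held 411 and 254. The line at 1000 UMIs divided the high-share barcodes at no visible gap: in the 50 UMIs below it, 3790 control barcodes had a median share of 35.4%, and in the 50 UMIs from it upward 3372 had 35.2%. In the null library 2408 and 1555 such barcodes had 43.9% and 43.5%. Barcodes outside both sets were the 11015 control and 4572 null barcodes with at least 1000 UMIs and a high share, and 99 and 250 small ones with a low share. Of all barcode sequences, 1367 occurred in both libraries, and without them the counts given below would be 743 and 811.

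**Figure D1:**
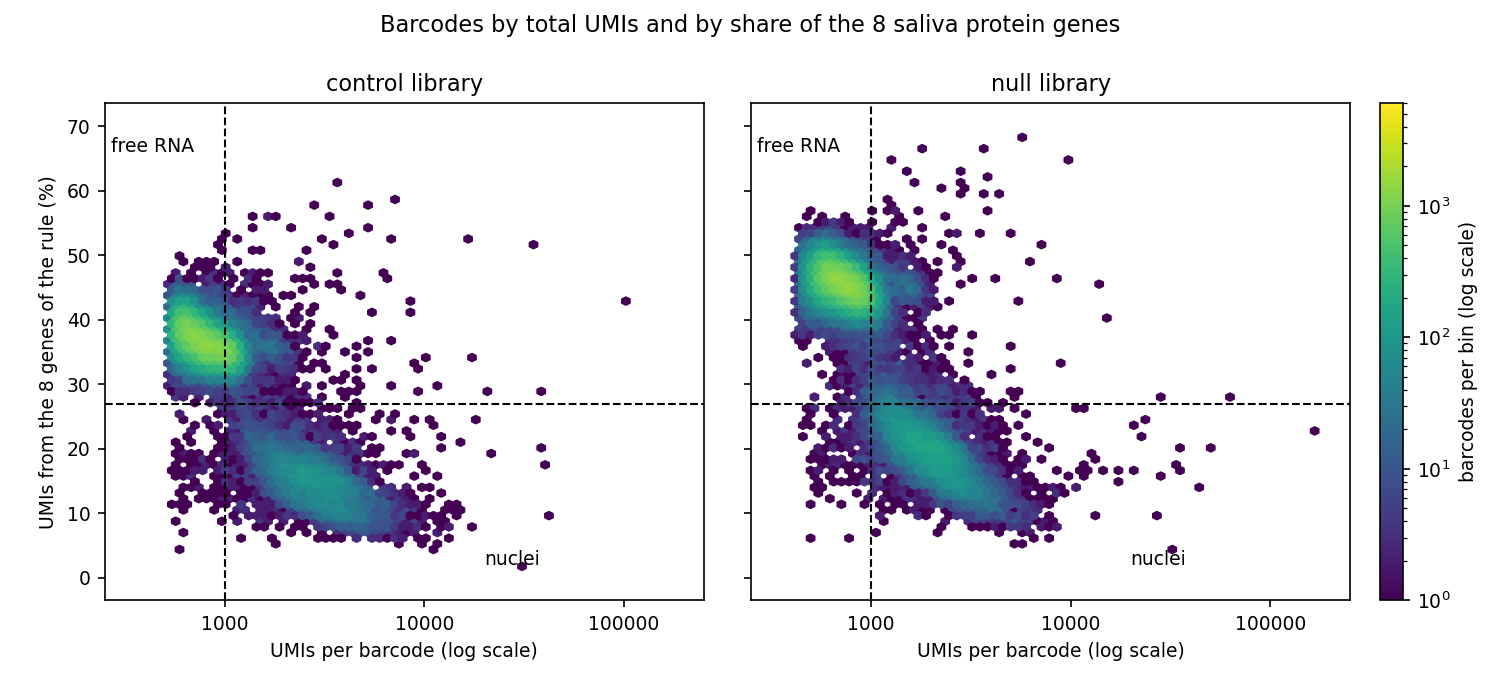
Each hexagon counts barcodes by total UMIs (x, log scale) and by the percent of UMIs from the 8 genes of the rule (y), for the control and the null library; dashed lines mark 1000 UMIs and 27%. Free RNA lies at the upper left around 36.8% and 45.7% and nuclei at the lower right.

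For each gene the share of the UMIs outside the 8 genes was taken in each set, and the log2 of free RNA over nuclei was formed in each library. A log2 ratio of 1 is thus a 2-fold higher share in free RNA. Of 26033 genes, 14064 had at least 50 UMIs over both sets in each library and were measured. Of these, 745 (5.3%) were at least 2-fold higher in free RNA in both libraries. Another 819 (5.82%) were at least 2-fold higher in nuclei in both. The remaining 12500 were neither. The median over all measured genes was -0.05 in the control library and -0.17 in the null one. No gene was past 2-fold in opposite directions, 84.7% had the same sign in both libraries, and the ratios correlated across genes (Pearson 0.90, Spearman 0.89, 14064 genes that share libraries and depth within each axis). Counted in the null library alone, 1169 and 1592 genes passed, against 820 and 1049 in the control alone, so the control library limited both counts. Of the calls, 47.6% were on the side of free RNA. With the 8 genes kept in the denominator this split became 8.15% (235 against 2647), and the median over all genes moved to -0.49 and -0.76.

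**Figure D2:**
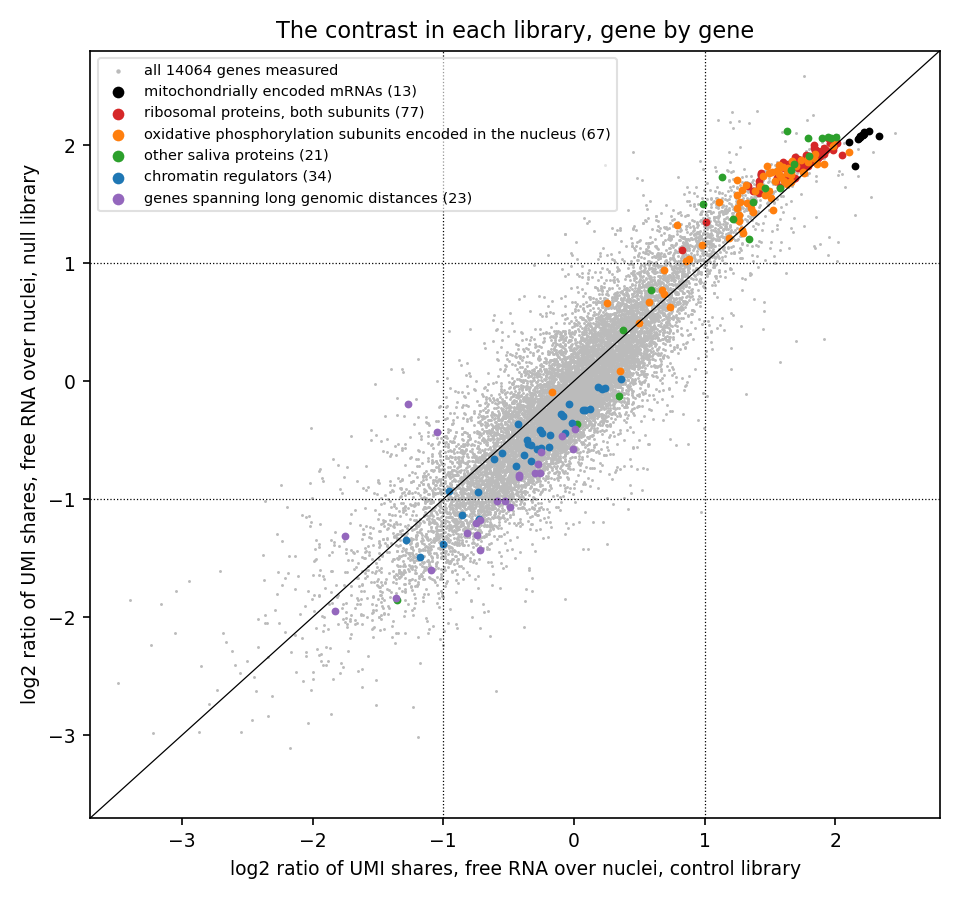
Each point is a gene, with its log2 ratio of UMI shares (free RNA over nuclei) in the control library (x) and in the null library (y); dotted lines mark 2-fold and colours mark gene lists. Mitochondrially encoded and ribosomal protein mRNAs sit together at the upper right near 2, and genes spanning long distances at the lower left.

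Genes higher in free RNA were mostly short and genes higher in nuclei mostly long. The median genomic span was 4.27 kb for the 745 genes, 80.4 kb for the 819 and 24.2 kb for all measured genes with a gene model. Ribosomal proteins and nuclear-encoded subunits of oxidative phosphorylation made up 130 of the 745 and 0 of the 819. They were 144 of all 14064 measured genes. Of the 819 genes higher in nuclei, 665 were protein coding and 153 were unspliced models that GENCODE lists as still to be checked by experiment. Over all 14064 measured genes these numbers were 13202 and 809. Among the 745 there were 3 such models.

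The mitochondrially encoded mRNAs, which code for subunits of the respiratory chain and are made inside the mitochondrion, stood at the top. All 13 were at least 2-fold higher in free RNA in both libraries, with medians of 2.19 in the control library and 2.07 in the null one against -0.05 and -0.17 over all genes. mt-Co1, a subunit of cytochrome oxidase, took 2382 CPM (UMIs per 1000000 UMIs outside the 8 genes) in free RNA and 525 in nuclei of the control library. In the null library it took 3433 and 822. Its log2 ratio was 2.18 (95% counting interval 2.15 to 2.21) and 2.06 (2.04 to 2.09). The interval is an exact conditional binomial one, as are the others of single ratios. It covers counting error alone, as do all that follow. The list ran from 2.11 (mt-Nd4l) to 2.33 (mt-Nd3) in the control, and from 1.83 (mt-Nd6) to 2.12 (mt-Atp6) in the null library.

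The nuclei therefore still held mitochondrial mRNA at 21.9% of its share in free RNA in the control library and 23.7% in the null one. Few genes went beyond this level. Apart from the mitochondrial ribosomal RNAs mt-Rnr1 and mt-Rnr2, 1 of 11703 genes with at least 200 UMIs exceeded the mitochondrial median in the control library. It was the secretoglobin Scgb1b3 (192 and 33 UMIs, log2 ratio 2.46, interval 1.94 to 3.05). In the null library it was Mia, among 11711 genes (210 and 47 UMIs, 2.25, interval 1.80 to 2.75). Both were picked out after their values were seen, and both intervals include the mitochondrial median.

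Mitochondrial mRNA took a lower share of the UMIs in nuclei that were richer in UMIs. It made up 0.381% of the UMIs outside the 8 genes in control nuclei with 1000 to under 2000 UMIs, 0.270% at 2000 to under 4000, 0.196% at 4000 to under 8000 and 0.169% at 8000 or more. In the null library the shares were 0.467%, 0.352%, 0.221% and 0.180%. Free RNA barcodes held 1.16% to 1.26% in the control library and 1.56% to 1.62% in the null one, and there too the share was lower in the larger barcodes. At closely matched size, 900 to under 1100 UMIs, high-share barcodes had 1.15% and low-share barcodes 0.486% in the control library (1.52% and 0.543% in the null one). These latter groups were small, 70 and 334 barcodes. They also held more different genes: a median of 652 outside the 8 genes against 536 in the control, and 633 against 437 in the null library, with medians of 820 against 639 and 789 against 540 UMIs outside the 8 genes.

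**Figure D3:**
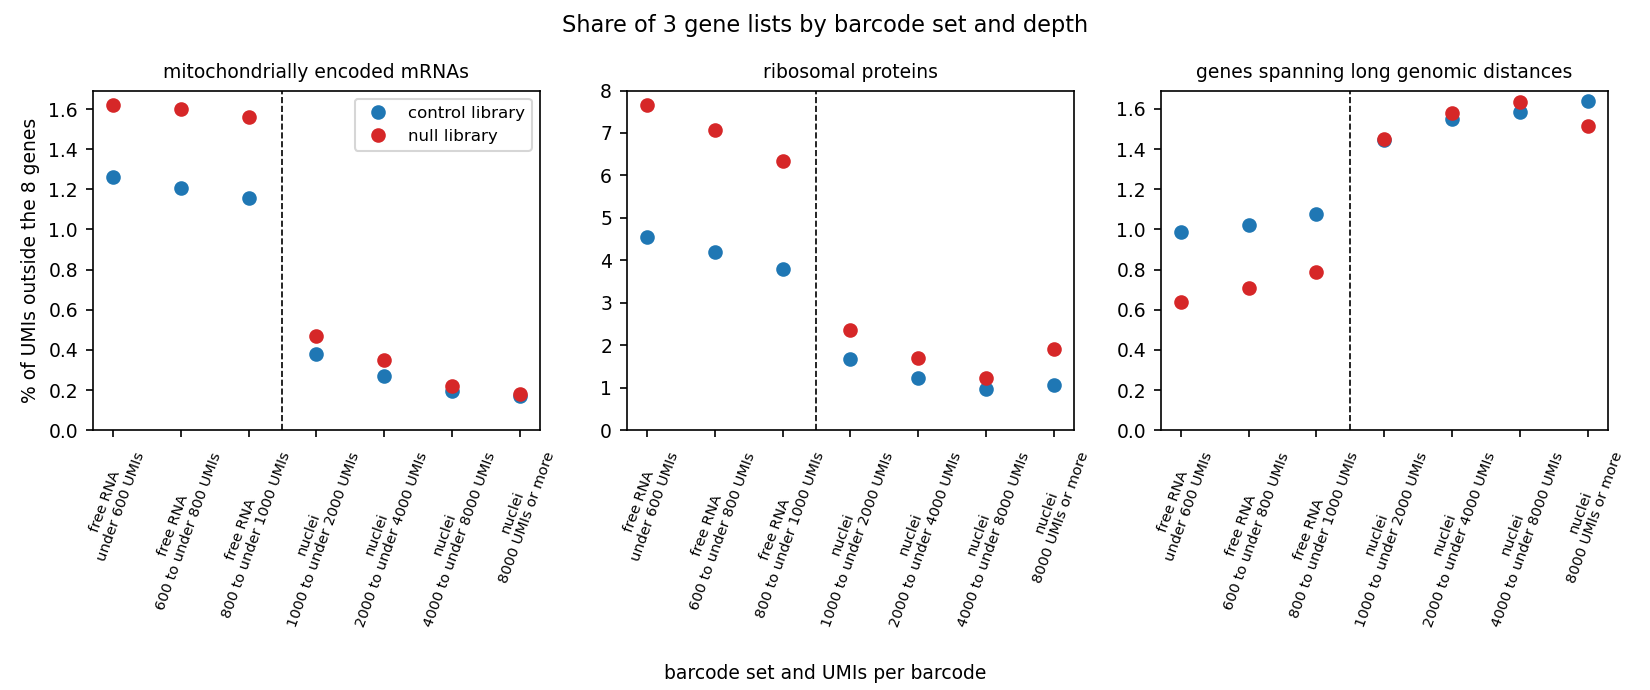
Percent of UMIs outside the 8 genes (y) from mitochondrially encoded mRNAs, ribosomal proteins and genes spanning long distances, for free RNA and nuclei in bins of UMIs per barcode (x), 1 point per library. The mitochondrial share drops at the border of the sets and falls on among nuclei to 0.169% and 0.180%, and the long genes step up to about 1.45% in the smallest nuclei.

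Ribosomal protein mRNAs came next. These proteins form the ribosome, and their short mRNAs are among the most abundant of any cell. Of 77 measured members 76 were at least 2-fold higher in free RNA, with medians of 1.78 and 1.86. All 31 members of the small subunit passed, and 45 of the 46 of the large subunit. The paralogs Rpl3l, Rpl10l and Rpl39l had too few UMIs to be measured. Together they gave 4.04% of the UMIs in free RNA and 1.20% in nuclei of the control library, and 6.89% and 1.89% in the null library.

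Rpl41, a very short protein of the large subunit, took 1775 CPM in free RNA and 493 in nuclei of the control, and 2868 and 760 of the null library, for log2 ratios of 1.85 and 1.92. Rplp1, a stalk protein of the large subunit, had 1.95 and 2.06, and Rpl39, another small one, 2.01 and 2.02. In the small subunit Rps2 was the lowest in both libraries (1.42 and 1.66), Rps27l, a paralog of Rps27, was the highest in the control (2.06 and 1.92), and Rps29 had 1.99 and 1.997. The member that did not pass was Rpl13a, with 49.6 and 28.01 CPM in the control (0.83, interval 0.68 to 0.97) and 68.4 and 31.7 in the null library (1.11, interval 0.98 to 1.24). Rpl10a was just over the line in the control (1.01 and 1.35). Processed copies of ribosomal protein genes are common in the genome, and how the counting treated reads that match several copies is not given in the sources used here.

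Many mRNAs of the translation machinery begin with a C followed by a run of pyrimidines, the 5′ terminal oligopyrimidine tract, through which their translation is controlled. The starts of the ribosomal protein and translation factor mRNAs with the highest ratios among those that have such a tract are shown because these genes were higher in free RNA as a group. Each window runs from 10 bases before to 20 bases from the RefSeq start (GRCm38.p6, 5′ to 3′ on the transcribed strand), and capitals mark a C followed by at least 5 bases that are each C or T. RefSeq lists 3 starts for Rpl35a and 2 for Rps24, of which 1 is shown.
Rpl35a (chr16:33056472-33056501, plus strand): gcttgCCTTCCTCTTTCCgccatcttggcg
Rpl28 (chr7:4792955-4792984, plus strand): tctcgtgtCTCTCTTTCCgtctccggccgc
Rps26 (chr10:128626487-128626516, minus strand): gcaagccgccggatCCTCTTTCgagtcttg
Rps24 (chr14:24490668-24490697, plus strand): gctggggtCCTTCCTTgcgcgttgatatga
Eef1a1 (chr9:78481705-78481734, minus strand): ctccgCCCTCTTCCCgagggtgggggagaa
Eif3f (chr7:108934405-108934434, plus strand): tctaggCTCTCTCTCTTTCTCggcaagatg
For comparison, the highest respiratory chain subunits without the tract, Ndufa1 and Uqcr11, start as follows.
Ndufa1 (chrX:37191219-37191248, minus strand): gcgaacgccagtcacttttgggcccccaca
Uqcr11 (chr10:80406802-80406831, minus strand): cttcacgcatgcgctatacgtctgcacatg

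The tract, searched on the transcribed strand with its C within 5 bases of the start, was found for 22 of 57 ribosomal protein genes with a RefSeq promoter (38.6%). Over all 10475 measured genes with one the share was 11.6%. Among the other lists shown above, 3 of 13 translation factors (23.1%) and 9 of 57 nuclear-encoded subunits of oxidative phosphorylation (15.8%) had the tract. Among the ribosomal protein genes the median ratio was alike with and without it, 1.74 against 1.73 in the control library and 1.86 in both groups in the null one. Over the 10405 genes outside the ribosomal proteins and translation factors, those with the tract had medians of -0.12 and -0.22 and those without it -0.02 and -0.13. RefSeq starts can lie several bases from the true one, so a missing tract says only that these letters are not at that place.

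Translation factors followed the ribosomal proteins at a lower level: 10 of 18 passed on the side of free RNA, 0 on the side of nuclei, with medians of 1.10 and 1.30. Tpt1, which encodes the translationally controlled tumour protein, was the highest, with 1288 CPM against 318 in the control library and 2180 against 528 in the null one (log2 ratios 2.02 and 2.05). Eef1a1, the elongation factor that brings aminoacyl tRNA to the ribosome, had 1.64 and 1.74. The lowest were Eif3h, a subunit of an initiation factor, in the control (0.23 and 0.51) and Nap1l1, a histone chaperone whose mRNA is listed with them, in the null library (0.35 and 0.30).

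Nuclear-encoded subunits of oxidative phosphorylation, whose mRNAs are translated in the cytoplasm, gave 54 of 67 members higher in free RNA and 0 higher in nuclei, with medians of 1.49 and 1.67. Ndufa1, a small subunit of complex I, was highest in the control library, with 112 and 25.9 CPM in the control library and 179 and 46.5 in the null one (2.11 and 1.94). Atp5e of the ATP synthase had 1.99 and 2.05, and Cox7c of cytochrome oxidase 1.37 and 1.44. Ndufs4, also a subunit of complex I, was the only member below 0 in both libraries, with 183 and 206 CPM in the control (-0.17, interval -0.23 to -0.11) and 179 and 191 in the null library (-0.09, interval -0.15 to -0.03). Its gene spans 100.5 kb, that of Ndufa1 3.58 kb. Within this list the ratio fell with gene span (Spearman -0.49 in the control library and -0.48 in the null one over 67 genes that share the same libraries).

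Glycolytic and cytoskeletal housekeeping mRNAs were also mostly higher in free RNA, 19 of 23 measured, with medians of 1.32 and 1.37. Gapdh, the glycolytic enzyme often used for normalization, had 67.9 and 25.5 CPM in the control library and 98.2 and 32.2 in the null one (1.41, interval 1.28 to 1.56, and 1.61, interval 1.49 to 1.73). Tmsb4x, which encodes the actin-binding thymosin beta 4, was the highest at 1.94 and 1.965. Eno1, another glycolytic enzyme, had nearly equal shares in both sets (-0.06 and 0.07, both intervals including 0).

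mRNAs for the endoplasmic reticulum, the compartment where saliva proteins are made, were divided. Of 36 members 10 passed on the side of free RNA and 0 on that of nuclei, with medians of 0.77 and 0.70. Spcs1 of the signal peptidase had 1.72 and 1.73, and P4hb, a disulfide isomerase, 0.83 and 0.68. Sel1l, which serves in the disposal of misfolded proteins, was close to 0 (0.10 and -0.12).

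The saliva proteins outside the rule had 15 of 21 measured members higher in free RNA and 1 higher in nuclei, with medians of 1.47 and 1.64. The 3 Dcpp genes, which encode small secreted proteins of demilune and parotid cells and are near-identical copies whose reads may be split between them, lay between 1.94 and 2.07. Dcpp3 took 5454 CPM of free RNA and 1418 of nuclei in the control, and 31132 and 7433 in the null library. The level of the list in free RNA was 2.32% in the control library and 8.57% in the null one, while free RNA exceeded nuclei 2.70-fold and 3.56-fold. Klk1, a kallikrein of duct cells, had 1.66 and 1.79. Muc19, a very large gel-forming mucin, was lower at 0.59 and 0.77. Egf, a growth factor made by duct cells, was near 0 in the control library (0.02). In the null library it was lower in free RNA (-0.36, interval -0.42 to -0.30).

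Globin mRNA, the mark of red blood cells, which have globin mRNA but in the adult mouse no nucleus, was low and lay with free RNA. Hbb-bs gave 1113 UMIs in free RNA and 261 in nuclei of the control, and 244 and 78 in the null library, for log2 ratios of 2.02 (interval 1.83 to 2.22) and 1.75 (1.38 to 2.14). The 4 globin genes passed in both libraries. Alas2, the enzyme of haem synthesis in red cell precursors, went the other way with few UMIs (72 and 127 in the control library, 110 and 185 in the null one, log2 ratios -0.88 and -0.64). Slc4a1, another red cell gene, had 0 UMIs in all 4 sums, which allows up to 3 in each.

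Genes that span long genomic distances were on the side of nuclei. Their list was chosen for span, with medians of -0.59 and -1.01. Of 23 measured members 4 were at least 2-fold higher in nuclei and 0 were so in free RNA. Over all measured genes the shares were 5.82% and 5.3%. Csmd3 and Lrp1b had too few UMIs. Csmd1, which spans 1643 kb, was the lowest, with 46.5 CPM in free RNA and 165 in nuclei of the control (-1.83) and 30.2 and 117 in the null library (-1.95). Wwox (-1.36 and -1.83), Rbfox1 (-1.75 and -1.31) and Dab1 (-1.09 and -1.60) were the others. Auts2, a regulator of transcription in neurons, took 3539 and 6234 CPM in the control library and 2713 and 6600 in the null one (-0.82 and -1.28). Dmd, the gene of dystrophin, was the highest in the control library (0.01, and -0.40 in the null one).

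These genes were not absent from free RNA. They gave 1.04% of its UMIs in the control library and 0.726% in the null one, against 1.55% and 1.54% in nuclei. Whether these UMIs came from exported mRNA or from nuclear precursors was not tested, so the name cytoplasmic does not rest on an absence of long genes. Malat1 and Neat1, which stay in the nucleus and would mark such RNA directly, were not analysed here, nor were the snoRNA host transcripts.

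Chromatin regulators, mostly large genes for proteins that modify or move nucleosomes, had medians of -0.27 and -0.51. Of 34 members 3 were higher in nuclei, a share near the 5.82% of all measured genes, and 0 in free RNA. Among the 3 were Arid1b, a subunit of a chromatin remodelling complex, with 340 and 771 CPM in the control library and 266 and 747 in the null one (-1.18 and -1.49), and the deacetylase Hdac4 (-1.004 and -1.38). Setd5, of a family of histone methyltransferases, was the highest in both libraries (0.36 and 0.02). Splicing factors and CLK kinases, some of whose transcripts keep introns in the nucleus, had 0 of 32 members past 2-fold in both libraries. Their medians of 0.20 and 0.03 averaged 0.12 over the libraries and turned to -0.40 with the 8 genes in the denominator. Srsf2, the highest, had 1.01 and 0.99, and Srrm2, the lowest in the control, -0.55 and -0.77.

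Immediate early and heat shock mRNAs, which are induced within minutes of stress and decay fast, had medians of 0.62 and 0.71. Of 21 measured members 1 passed on the side of free RNA, a share near the 5.3% of all measured genes. It was the abundant chaperone Hspa8 (1.11 and 1.05). Dusp1, a phosphatase of the stress response, had 0.97 and 0.92, and Hsph1 was lowest (-0.08 and -0.46).

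**Figure D4:**
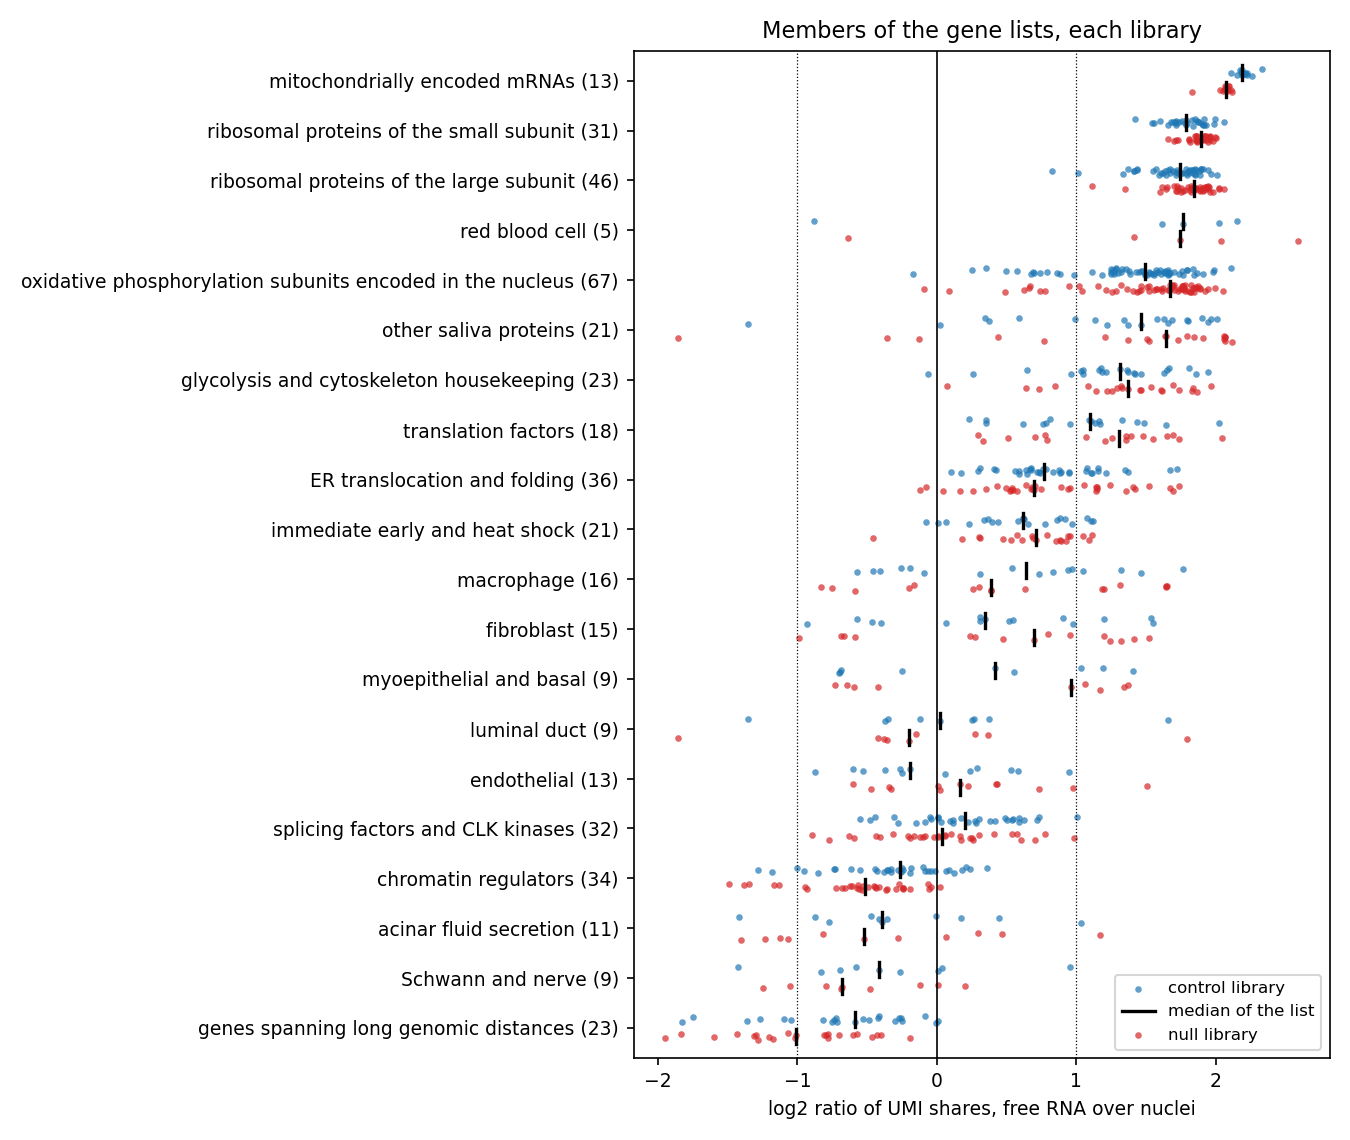
Log2 ratio of UMI shares, free RNA over nuclei (x), for every measured member of 20 gene lists (y, number of members in brackets), control library in blue and null library in red, black bars at the medians. Mitochondrially encoded mRNAs form the tightest cluster, with medians of 2.19 and 2.07, and cell type lists spread on both sides of 0.

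Lists of cell type markers were spread widely, and within them the ratio tended to fall with gene span. In these summed libraries fewer cells of a type and less RNA per cell cannot be told apart. The counts below stand beside 5.3% of all measured genes higher in free RNA and 5.82% higher in nuclei. Of 11 measured genes of acinar fluid secretion 1 was higher in free RNA and 1 in nuclei, with medians of -0.40 and -0.52. Aqp5, the water channel of the apical membrane with a span of 4.05 kb, was the one higher in free RNA (1.03 and 1.17). Kcnma1, a potassium channel gene of 725 kb, had -0.77 and -1.41, and Chrm3, the muscarinic receptor that starts fluid secretion, -0.40 and -1.07.

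Macrophage markers had 4 of 16 members higher in free RNA: the lysozyme Lyz2 (1.47 and 1.64), Tyrobp (1.76 and 1.31), C1qa (1.32 and 1.64) and C1qc (1.05 and 1.19). Mertk (-0.46 and -0.83), F13a1 (-0.41 and -0.59) and Cx3cr1 (-0.57 and -0.75) lay below 0. The list's summed share was nearly equal in both sets, 0.0362% and 0.0357% in the control library and 0.0322% and 0.0317% in the null one. The correlation of the members' ratios with gene span was -0.75 and -0.74 by Spearman over 16 genes that share libraries. Fibroblast markers gave 2 of 15, Lum (1.55 and 1.32) and Gsn (1.53 and 1.52), with Pdgfra lowest (-0.93 and -0.99). Myoepithelial and basal markers gave 3 of 9, Acta2, Krt14 and Krt17, and the lowest ratios of this list were -0.70 and -0.73. Its summed share was lower in free RNA than in nuclei, 0.0555% against 0.0649% in the control library and 0.0532% against 0.0614% in the null one. Endothelial markers gave 0 of 13, from Flt1 (-0.87 and -0.60) to Cldn5 (0.95 and 1.504). Schwann and nerve markers gave 0 higher in free RNA and 1 of 9 in nuclei, Ncam1 (-1.42 and -1.25). The medians of the endothelial and luminal duct lists had opposite signs in the 2 libraries, and the medians of the macrophage, mucous acinar and lymphocyte lists turned below 0 with the 8 genes in the denominator.

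The relation to gene span held over all genes. Quartiles of the 14046 measured genes with a GENCODE M21 model had median ratios of 0.31, 0.09, -0.08 and -0.41 in the control, from the shortest to the longest, and 0.41, 0.06, -0.22 and -0.67 in the null library. Of the shortest quartile (up to 9.31 kb) 17.1% were higher in free RNA and 5.21% in nuclei, and of the longest (59.6 kb or more) 0.171% and 13.5%. Across genes, Spearman's rho with span was -0.42 in the control library and -0.53 in the null one, with transcript length -0.33 and -0.40, and with exon number -0.25 and -0.32. These are descriptions across genes that share the same libraries, and span, transcript length and exon number go together. Whether reads in introns were counted is not given in the sources used here. That setting decides how much of a precursor is counted, so the ratios of long genes cannot be assigned to precursor or to mature mRNA.

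**Figure D5:**
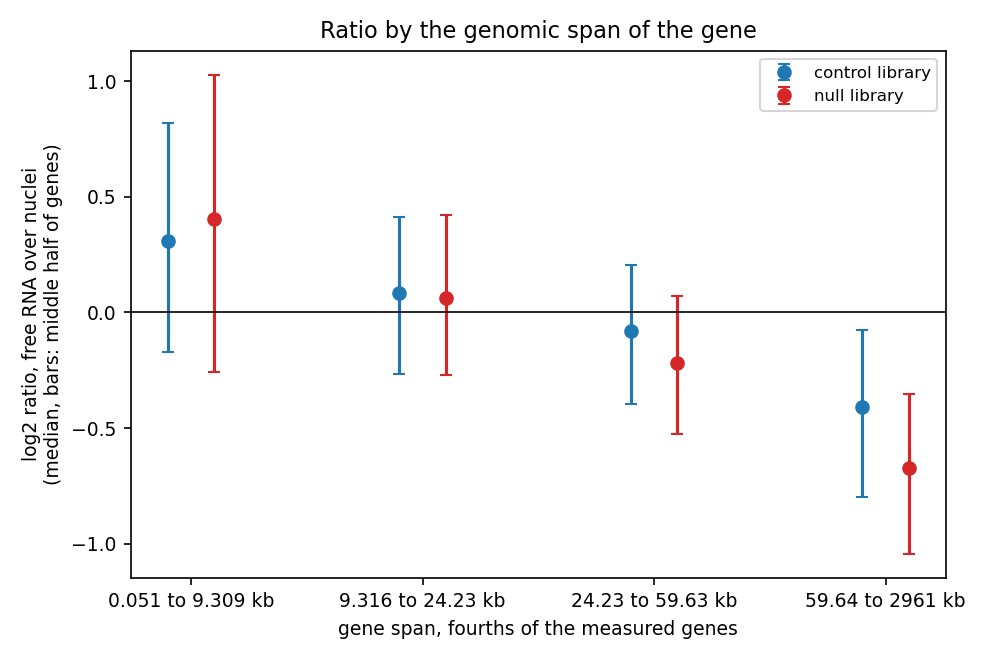
Median log2 ratio of free RNA over nuclei (y; bars run from the lower to the upper quartile of the genes) in quartiles of gene span (x, kb), control library in blue and null library in red. Medians fall from 0.31 and 0.41 in the shortest genes to -0.41 and -0.67 in the longest, with overlapping bars between neighbouring quartiles.

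Genes of 1 exon, which need no splicing, fell into groups that differed. The 234 protein-coding ones had medians of 0.67 and 0.98, and 27.8% of them were higher in free RNA. The 805 unspliced models still to be checked had medians of -0.37 and -0.68, with 18.9% higher in nuclei. Many such models lie inside introns of other genes, and the files do not say how reads in such places were counted.

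Genes with the most extreme ratios were named by rank. The 12 highest in free RNA, outside ribosomal proteins, mitochondrially encoded genes and the genes of the rule, were the 3 Dcpp genes, Tpt1, Tmsb4x, Atp5e, Ndufa1, Uqcr11 of complex III, Ifi27l2a, Fam25c, Mup5 and Wfdc18. Ifi27l2a, an interferon-induced gene, had 289 and 69.2 CPM in the control library and 602 and 148 in the null one (2.06 and 2.02). Mup5, of the major urinary protein family of lipocalins, had 217 and 56.5, and 263 and 65.1 (1.94 and 2.01). Wfdc18, a small secreted protein, had 1.90 and 2.06, and Fam25c 2.17 and 1.97. All 12 genes span under 20 kb, and their ratios lay between 1.90 and 2.17 in the control library and 1.94 and 2.07 in the null one, at or just under the mitochondrial medians.

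The 12 highest in nuclei reached further from 0. Flrt1, a leucine-rich membrane protein gene, had 4.62 CPM in free RNA and 43.2 in nuclei of the control and 8.18 and 64.7 in the null library. Its ratios of -3.22 (interval -3.52 to -2.94) and -2.98 (-3.21 to -2.76) amount to 9.31-fold and 7.89-fold higher in nuclei. Taco1, a factor that helps translate the mitochondrial Co1 mRNA, had 38.7 and 257, and 28.1 and 173 (-2.73 and -2.62), although it spans only 7.55 kb. Insyn2a (-2.56 and -2.47) and Gcnt7 (-2.66 and -2.21) followed. Flrt1, Insyn2a and Gcnt7 lie opposite Macrod1, Dock1 and Rtf2 on the other strand. Without a stated strand setting their reads cannot be told apart from those of the partner. Macrod1 (-1.30 and -1.55) and Dock1 (-0.93 and -1.51) were themselves lower in free RNA, while Rtf2 was near 0 (-0.18 and 0.17). Of 2897 measured genes opposite a protein-coding gene 5.97% were higher in nuclei, against 5.79% of the 11149 with none. A part played by the partners was not tested.

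The other 8 were the transcription factors Zbtb16 (-2.21 and -2.12) and Zfp536 (-1.99 and -2.46), the tetraspanins Tspan9 (-2.08 and -2.17) and Tspan18 (-2.26 and -2.05), the chemerin receptor Cmklr1 (-2.08 and -2.54), Cmip (-1.98 and -2.09), the Ras scaffold Ksr1 (-1.97 and -2.27) and the sulfotransferase Chst11 (-1.94 and -2.31). They span 38.1 kb (Cmklr1) to 301.5 kb (Zfp536).

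The nuclei set held nuclei of several cell types. Markers were summed for fibroblasts, endothelium, macrophages, lymphocytes, plasma cells, Schwann cells, pericytes and smooth muscle, adipocytes, skeletal muscle and red blood cells. These are non-epithelial types, but Acta2 and Myh11 of the pericyte and smooth muscle list also stand in the myoepithelial list. The sum gave 0.284% of the UMIs of nuclei outside the 8 genes in the control library and 0.281% in the null one. In free RNA it gave 0.315% and 0.305%. When only nuclei with a marker share at or below that of free RNA in their library were kept (6356 control and 9715 null nuclei), 1350 genes were higher in free RNA and 509 in nuclei. Of the 745 and 819 genes, 660 and 377 were among them. This choice lowers the markers themselves in the nuclei. Several of the named genes changed sign then: Cmklr1 moved to 1.21 and 0.27, Zfp536 to 2.23 and 1.18 and Ksr1 to 0.57 and 0.08, while Zbtb16 came to -0.09 and -0.35. Flrt1 (-3.43 and -3.15), Taco1 (-2.85 and -2.73) and Tspan9 (-1.77 and -1.89) kept their size. The mean of the list medians was 2.14 for mitochondrial mRNAs, 1.81 for ribosomal proteins and -0.44 for genes spanning long distances, against 2.13, 1.82 and -0.80 over all nuclei.

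The 2 sets also differed in size by construction. With both sets at 1000 UMIs or more, 490 genes were higher in free RNA and 402 in nuclei, and the mean list medians were 1.97 for mitochondrial mRNAs, 1.57 for ribosomal proteins and -0.61 for the long genes. The 12 genes named as highest in nuclei then ranged from -3.23 (Flrt1) to -1.60 (Chst11) in the control and from -2.03 (Cmklr1) to -1.07 (Cmip) in the null library, where Flrt1 moved to -1.33 and Taco1 to -1.18. The 12 named as highest in free RNA ranged from 1.67 to 2.04 and from 1.498 to 1.81. With both under 1000 UMIs, where the low-share side held 99 and 250 barcodes, the counts were 355 and 1158 and the mean medians 1.65, 1.33 and -0.68. Single genes moved more there, such as Uqcr11 to 0.38 in the control (1.36 in the null library), and Chst11 turned to 0.61 in the control (-2.23 in the null library). The order of these lists was thus the same at either depth.

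Between the libraries the ratio differed by a median of -0.09 (null minus control; SD over genes 0.33). Among 10769 named genes with at least 200 UMIs in each library, 8 differed by 1 or more. The counting interval of the difference lay wholly below 0 for 3876 of the 10769 genes and wholly above 0 for 1281. Differences beyond counting error were thus common, and with shares taken outside the 8 genes more of them were lower ratios in the null library. With these shares the median over all measured genes was itself lower there, -0.17 against -0.05 for the control. TMM scaling brought the same 2 medians to -0.03 and 0.0005, and DESeq2 size factors to -0.005 and 0.001. Whether the excess of lower ratios remains under either scaling was not tested. The largest differences were ranked by the bound of the counting interval nearest 0. Lower ratios in the null library were those of Pnn, a splicing-related nuclear protein (-0.05 and -0.89), Dgkg, a diacylglycerol kinase (-0.67 and -1.42), Tafa1 (-0.89 and -2.09), Osbpl5 (-0.32 and -1.38) and Cntn5, a neural adhesion protein (0.13 and -0.74). Of these, Tafa1 lies opposite 1700123L14Rik on the other strand. Higher ratios in the null library were found for Itgb2l (-3.04 and -1.78), Oxsm (0.01 and 1.18), both of which lie opposite another gene on the other strand (Igsf5 and Ngly1), Eif4ebp1, a repressor of cap-dependent translation (0.63 and 1.40), Kcne1, a potassium channel subunit (0.20 and 1.09) and Imp3 (0.48 and 1.18). Each genotype had 1 library, so these differences have no replicate check. With both sets under 1000 UMIs the difference turned for Cntn5 (-0.36 and 0.62) and Eif4ebp1 (3.02 and 0.03).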

How the data were processed

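The authors deposited 1 matrix of raw UMI counts for each of 2 libraries. The file headers name Cell Ranger 7.0.0, and the submitters' processing notes name build GRCm39. The annotation, the intron and strand settings and the way barcodes were chosen are not given in the sources used here. The barcode sets held 36995814 and 25963809 UMIs (free RNA and nuclei) in the control and 40588086 and 29110796 in the null library.

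UMIs were summed per gene over each set, divided by the set's total outside the 8 genes, and compared as a log2 ratio with 0.5 UMI added. Genes needed 50 UMIs over both sets in each library, and a call needed a log2 ratio past 1 in both libraries. Named genes were the 12 highest and 12 lowest by the ratio nearest 0 (at least 200 UMIs per library; ribosomal, mitochondrial and unnamed genes left out), the highest, lowest and most abundant members of the lists, and the 5 largest library differences each way. Other genes were added as examples after their values were seen. The members and lists were chosen with earlier results of these data known. Gene spans came from GENCODE M21 (GRCm38), matched by identifier for 25637 of 26033 genes, and start sequences from RefSeq (GRCm38.p6). No coordinates were converted. Doublets were not removed. Some members of the lists are counted but not reported here by name. Python 3.11.15, NumPy 2.4.6, SciPy 1.17.1 and pandas 2.3.3 were used, and R 4.3.3 with edgeR 4.0.16 and DESeq2 1.42.0 for alternatives alone. The call code was tested on simulated data.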

Additional observations from a re-analysis of the deposited data

How the results depend on the processing

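The counts of 745 genes higher in free RNA and 819 higher in nuclei ranged from 820 to 1169 and from 1049 to 1592 when 1 library was used alone. They became 235 and 2647 with the 8 genes in the denominator, 20 and 37 past 4-fold, 490 and 402 with both sets at 1000 UMIs or more, 1350 and 509 with nuclei low in markers of other cell types, and 1299 and 1308 with the free RNA profile subtracted from nuclei at the mitochondrial level. The last 2 of these, and leaving out nuclei of 10000 UMIs or more (748 and 817), were chosen after seeing the data. The count for free RNA alone moved past 1.5 times to 355 with both sets under 1000 UMIs and to 470 with the share set at 35%. That for nuclei alone moved to 535 with at least 200 UMIs per gene, to 1616 with no minimum beyond 1 UMI, and to 1297 with nuclei held under 10%. edgeR with the library as replicate block called 972 and 1228 genes at an adjusted p under 0.05 and a log2 ratio past 1, without the block 910 and 1048, and DESeq2 957 and 1203; since the sets come from the same counts, no p-value is read from them. TMM scaling (859 and 657) and DESeq2 size factors (865 and 647) kept both within 1.5 times and moved the median over all genes in the null library from -0.17 to -0.03 and -0.01. The cause of these changes was not tested. Of 494 list medians over 19 settings that keep both libraries, 192 moved beyond the SD between the libraries and 27 changed sign, none of them in a list whose medians were past 1. Depth limits the lymphocyte, plasma cell, adipocyte and skeletal muscle lists, of which 6, 1, 4 and 3 members were measured.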

Other observations

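Genes that go against the relation with gene span were looked up after the values had been seen. Of 2088 measured genes over 100 kb, 3 were at least 2-fold higher in free RNA in both libraries. Gabrb1, which encodes a subunit of the GABA-A receptor and spans 490.9 kb, had 654 UMIs in free RNA and 170 in nuclei of the control and 1220 and 352 in the null library, with log2 ratios of 1.87 (counting interval 1.63 to 2.13) and 1.90 (1.73 to 2.08). Scp2, a sterol carrier protein gene of 101.2 kb, had 1.32 and 1.36. Snrpn, an imprinted splicing protein gene of 157.7 kb, had 1.05 and 1.25 with under 150 UMIs per library.

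In the other direction, 188 of 3719 genes under 10 kb (5.06%) were higher in nuclei, near the 5.82% of all measured genes, and 13 of them were protein coding with no protein-coding gene overlapping. Beside Taco1 these included Star, the transporter that brings cholesterol into mitochondria (-1.21, interval -1.60 to -0.84, and -1.34, interval -1.63 to -1.06), the cytochrome P450 gene Cyp2d22 (-1.57 and -1.45) and Pram1 (-1.01 and -1.25). Gzmm, a granule protease of cytotoxic lymphocytes, was among them with 33 and 64 UMIs in the control and 54 and 129 in the null library (-1.01 and -1.14).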
